A study of Homo sapiens with 24 samples.

Results

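Loss of the receptor CD33 was set directly against loss of the phosphatase SHP-1 in macrophages made from the THP1 monocyte line, by comparing 6 CD33KO_shCTRL libraries with 6 WT_shPTPN6 libraries over every gene with enough counts. These 12 libraries were chosen by their labels, out of 23 used here, and 13098 of 60617 gene identifiers in the table were tested. THP1 is a human monocytic leukaemia line, and all cells were turned into adherent macrophages with 10 ng/ml of the phorbol ester PMA for 48 hours and a further 48 hours without it. CD33KO_shCTRL cells, called the knockout below, are CD33 knockout cells that carry empty pLKO.1. WT_shPTPN6 cells, called the knockdown, are wild type for CD33 and carry pLKO.1 with a short hairpin RNA against PTPN6, the gene of SHP-1. WT_shCTRL cells, called the control, are wild type with the empty vector (6 libraries), and CD33KO_shPTPN6 cells carry both changes (5 libraries, since replicate 2 was not analysed here). All 4 groups met lentivirus made in HEK-293FT cells for 24 hours, rested for 48 hours and were selected with 1 µg/ml puromycin. The knockout and the knockdown thus differ in CD33 genotype, in the presence of a hairpin and in the line, and these cannot be told apart in their direct difference. The labels do not say whether the knockout line is a single clone, where CD33 was edited, or whether replicates were separate cultures, which leaves the p-values as measures of the spread among libraries, part of which may be technical.

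CD33 is a Siglec, a lectin of myeloid cells that binds sialic acid and carries inhibitory tyrosine motifs in its cytoplasmic tail. When Src family kinases phosphorylate these motifs, they recruit the phosphatases SHP-1 and SHP-2, which oppose signalling through Syk and immunoreceptor adaptors. SHP-1 is shared by many other inhibitory receptors and also acts on cytokine receptor and JAK signalling, so the receptor and the phosphatase lie in the same pathway without having the same reach. CD33 is also a risk gene for Alzheimer's disease, where it is studied in microglia.

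The hairpin target is shown because it defines the knockdown group.
PTPN6 target: cgacatgctcatggagaacat
It spans 21 bases at chr12:6959963-6959983 (GRCh38, plus strand), in the coding sequence in exon 12 of 16 of full-length PTPN6 transcripts, and it matches 7 annotated transcripts exactly, none of them of another gene. PTPN6 stood at 32.6, 37.5 and 44.1 CPM (lowest, median and highest library; CPM, that is counts scaled by TMM to a common library size) in the knockout and at 8.73, 10.7 and 12.8 CPM in the knockdown. Every knockout library was above every knockdown library (log2 difference 1.84 ± 0.12 SE, edgeR adjusted p = 2.63e-26; two-sided exact permutation p = 0.00216, the smallest that 6 against 6 libraries allow). CD33 stood at 16.2, 20.8 and 22.5 CPM in the knockout and at 81.3, 88.05 and 94.9 CPM in the knockdown, again without overlap (log2 difference -2.13 ± 0.09 SE, edgeR adjusted p = 2.39e-40; exact permutation p = 0.00216). In the control CD33 stood at 39.7, 46.3 and 48.5 CPM, between the groups, so the direct CD33 difference is made of a lower level in the knockout and a higher level in the knockdown. PTPN6 stood at 35.8, 45.3 and 52.4 CPM in the control, a range that overlapped the knockout. Against the control, PTPN6 had a log2 difference of -0.23 in the knockout (edgeR adjusted p = 0.0372) and -2.08 in the knockdown (edgeR adjusted p = 2.07e-33). Since the edited site is not given, counts from the 3' end of CD33 check nothing about the edit.

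Total counts were 2048161 to 3749258 per knockout library and 3318001 to 6269304 per knockdown library. Mitochondrial transcripts took 6.53 to 7.13% of counts in the knockout and 7.85 to 8.70% in the knockdown, and ribosomal protein transcripts took 4.53 to 4.81% and 9.33 to 9.63%. Over the 2000 genes that varied most, the first principal component of the 12 libraries held 88.2% of the variance and separated the groups, and the second held 1.87%. Of the 11 macrophage and monocyte identity markers examined, all were detected in every library of both groups, with lysozyme (LYZ) at 2.14, 3.09 and 5.397 CPM in the knockout the lowest. All 11 had a lower median in the knockout than in the knockdown. Apart from CD68, every knockout library lay below every knockdown library, as for PTPRC (medians 77.5 against 137 CPM) and CD14 (620 against 871 CPM). Over all genes tested, libraries did not overlap for 41.9%, in either direction.

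The groups differed over most of the measured transcriptome. By the edgeR quasi-likelihood test with a Benjamini-Hochberg adjusted p under 0.05, 8459 of 13098 genes (64.6%) were called, 4341 (33.1%) higher in the knockout and 4118 (31.4%) higher in the knockdown. At least 2-fold differences were called for 1580 and 1184 genes, and at least 8-fold differences for 307 and 130. The libraries of the groups did not overlap for 5487 genes (41.9%). Of 4639 genes that were not called, 2629 had a 95% interval of the log2 difference within 0.5 either way. The median log2 difference (knockout minus knockdown, the direction used throughout) over all genes was 0.017. For comparison, each group's own contrast with the control called 7428 genes (56.7%) in the knockout and 7941 (60.6%) in the knockdown, and these 2 contrasts share the control libraries.

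**Figure D1:**
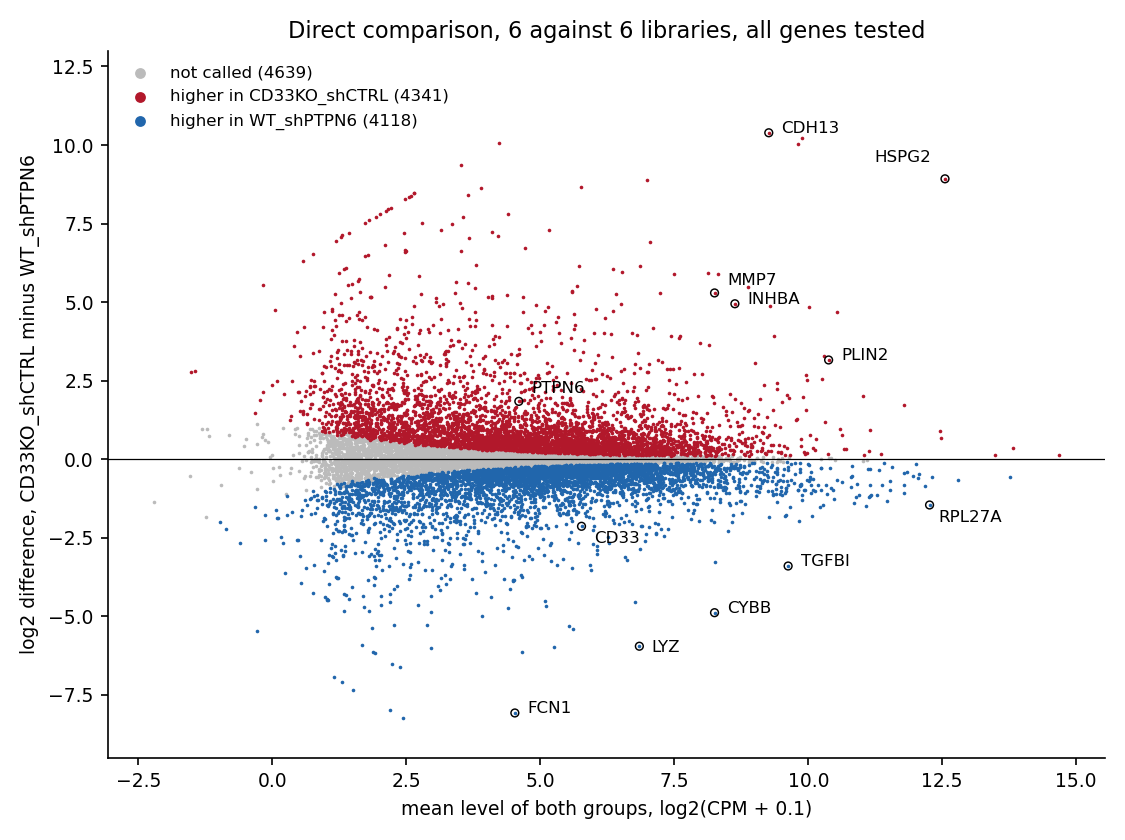
Each point is 1 of the 13098 genes tested, with the mean level of both groups on a log2 scale on the x axis and the log2 difference (knockout minus knockdown) on the y axis. Red points are called higher in CD33KO_shCTRL, blue points higher in WT_shPTPN6 and grey points neither; HSPG2 and CDH13 lie at the top, FCN1 and LYZ at the bottom.

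The largest differences in favour of the knockout were in genes with few or no counts in the knockdown, apart from HSPG2. HSPG2 encodes perlecan, a large proteoglycan of basement membranes, and stood at 9355, 11721 and 15335 CPM in the knockout and 17.2, 22.7 and 35.8 CPM in the knockdown (log2 difference 8.92 ± 0.23 SE, edgeR adjusted p = 6.54e-19). The cadherin CDH13 stood at 959.7, 1199 and 1585 CPM against 0, 0.852 and 2.11 CPM (log2 difference 10.39 ± 0.26 SE, edgeR adjusted p = 3.89e-19), and the growth factor NRG4 at 1528, 1813 and 2396 CPM against 0.546, 1.02 and 2.74 CPM (log2 difference 10.23 ± 0.26 SE, edgeR adjusted p = 7.62e-19). None of these 3 overlapped between groups, and their control libraries overlapped those of the knockdown, with medians of 19.3, 0.847 and 0.883 CPM. The pseudogene RPS26P52, a copy of RPS26 whose reads may be shared with it, had a log2 difference of 10.02 ± 0.23 SE. The trace amine receptor TAAR8, the retroviral envelope gene ERVW-1 and the noncoding LINC01505 had 345, 185 and 174 counts over the knockout libraries and 0 in the knockdown. Against a floor of 3 counts over the group they were at least 203-fold, 109-fold and 102-fold higher. MMP3, stromelysin 1, completed the 8 largest at 94.4, 107 and 125 CPM against 0, 0.0809 and 0.996 CPM (log2 difference 8.68 ± 0.20 SE, edgeR adjusted p = 1.79e-66); it was also lower in the knockdown than in the control (1.87, 2.75 and 3.28 CPM).

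The largest differences in favour of the knockdown were in genes with few or no counts in the knockout. FCN1, the ficolin of classical monocytes, stood at 0, 0 and 0.978 CPM in the knockout and 41.5, 46.2 and 47.8 CPM in the knockdown (log2 difference -8.07 ± 0.30 SE, edgeR adjusted p = 2.75e-47). With 2 counts over the knockout libraries and 1201 over the knockdown libraries, its depth-scaled ratio was 339.9 (95% counting interval 93.9 to 2809.6). LILRB2, an inhibitory leukocyte receptor that binds MHC class I, had 1 count against 247 (ratio 139.8, interval 24.9 to 5544). SLFN12, a schlafen family protein, had 1 against 262 (ratio 148, interval 26.4 to 5879) and the galectin LGALS2 1 against 194 (ratio 109.8, interval 19.5 to 4359). The pepsinogen gene PGA5, the channel PKD2L1 and the signal regulatory protein SIRPB2 had no count in the knockout and were at least 52.1-fold, 43.4-fold and 28.5-fold higher in the knockdown. The dipeptidase DPEP1 stood at 0, 0.878 and 1.06 CPM against 43.3, 49.9 and 55.6 CPM (log2 difference -6.14 ± 0.21 SE, edgeR adjusted p = 2.13e-50), although its control median of 102 CPM was higher than both.

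In absolute terms the largest differences lay in a few very abundant transcripts. Higher in the knockout by mean CPM, after HSPG2, were the membrane-bound matrix metalloproteinase MMP14 (5549 against 1642 CPM, medians of knockout and knockdown), the ferritin heavy chain FTH1 (7225 against 4009 CPM), the mitochondrial ribosomal RNA MT-RNR2 (27683 against 25299 CPM), the G protein regulator RGS16 (2852 against 109.7 CPM) and the MHC class I light chain B2M (7284 against 4383 CPM). Their log2 differences were 1.72, 0.89, 0.15, 4.70 and 0.69 (edgeR adjusted p = 9.5e-60, 7.35e-36, 0.00132, 7.22e-67 and 3.77e-20). Higher in the knockdown were the mitochondrial transcripts MT-CO3 (11219 against 16664 CPM) and MT-ND4 (5457 against 8764 CPM) and 4 ribosomal protein genes, of which RPL27A differed most (2723 against 7195 CPM, log2 difference -1.45 ± 0.05 SE, edgeR adjusted p = 2.18e-53). The call of MT-RNR2 ended without a filter on low counts (edgeR adjusted p = 0.174). RGS16 stood out among these abundant genes in fold, with the control between the groups at a median of 550.5 CPM. RPL37A, RPS14 and RPS24 had log2 differences of -0.85, -1.06 and -1.33.

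**Figure D2:**
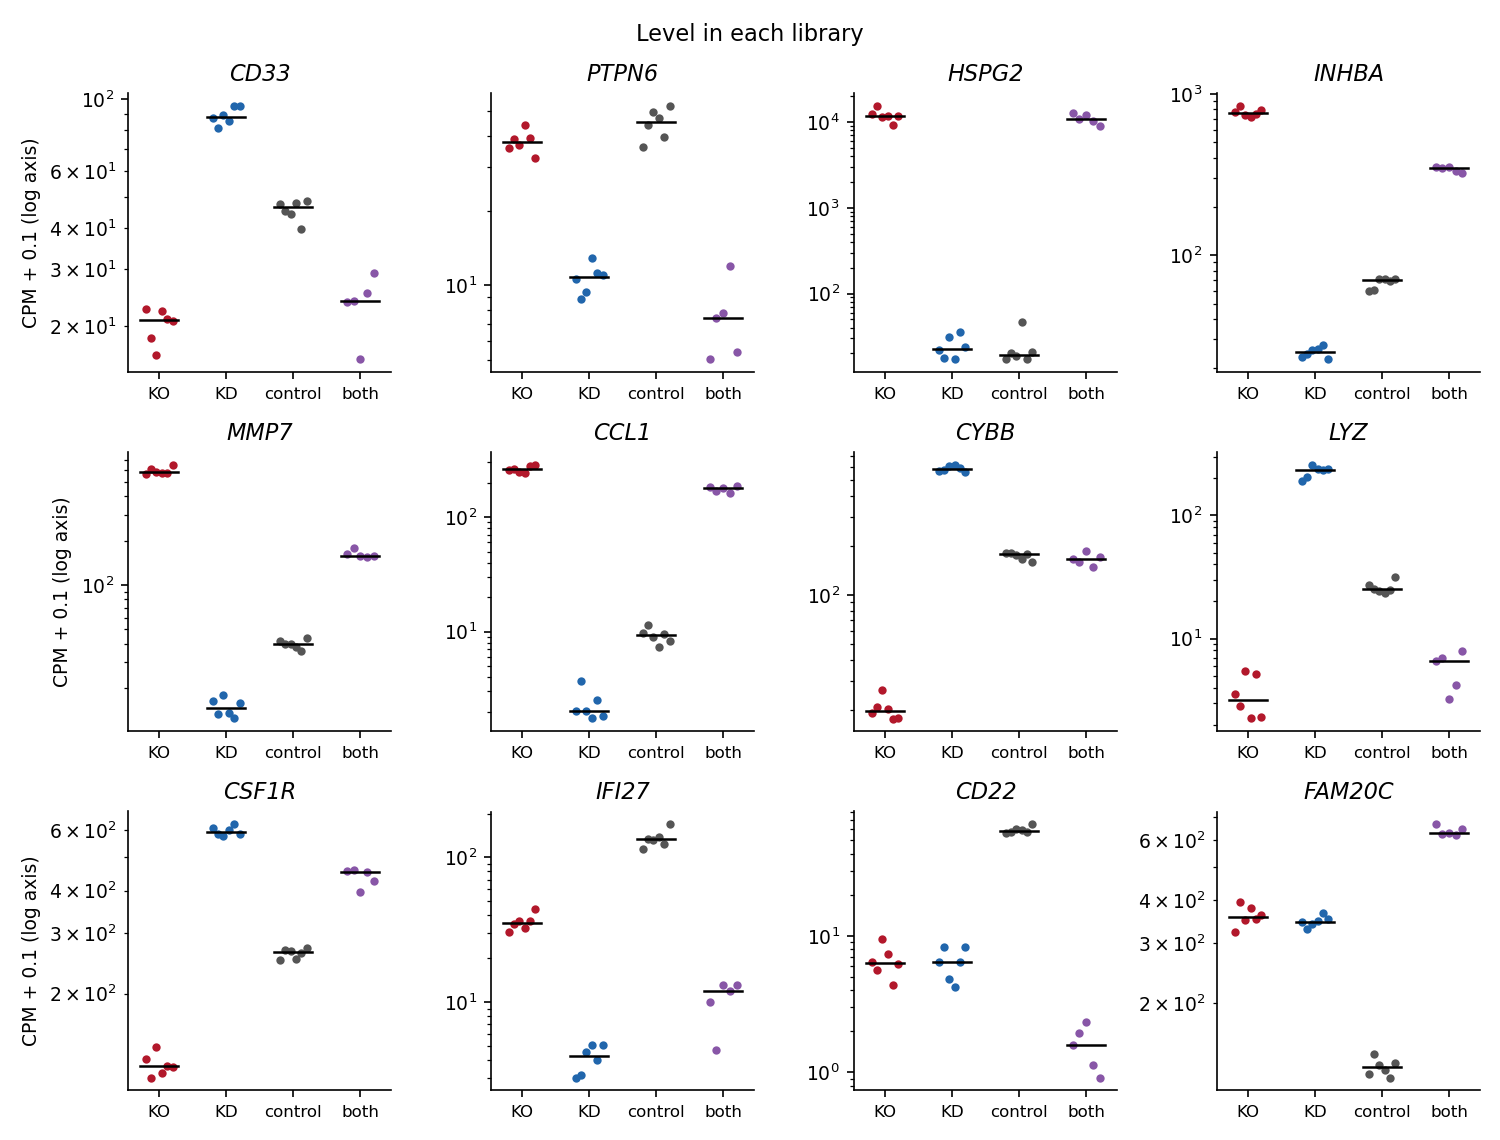
Level of 12 genes in every library as CPM + 0.1 on a log axis, in CD33KO_shCTRL (KO, 6 points), WT_shPTPN6 (KD, 6), WT_shCTRL (control, 6) and CD33KO_shPTPN6 (both, 5); the bar is the group median. HSPG2, INHBA, MMP7 and CCL1 are high in the knockout, CYBB, LYZ and CSF1R in the knockdown, and CD22 and FAM20C overlap between them.

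Most tested cytokines and chemokines were higher in the knockout. Of 34 members with enough counts (47 in the table) 26 were higher in the knockout, 3 higher in the knockdown and 5 not called, with a median log2 difference of 2.12 beside 0.017 for all genes. The counts of every list stand beside 33.1% of all genes tested that were higher in the knockout and 31.4% that were higher in the knockdown. A share near these values does not set a list apart from all genes. The list medians against the shared control were 2.97 in the knockout and 0.40 in the knockdown. The chemokine CCL1 stood at 241, 261 and 284 CPM in the knockout and 1.64, 1.94 and 3.61 CPM in the knockdown (log2 difference 6.92 ± 0.11 SE, edgeR adjusted p = 1e-83). IL23A, a subunit of interleukin 23, stood at 268, 286 and 325 CPM against 5.11, 6.57 and 11.2 CPM (log2 difference 5.28 ± 0.09 SE, edgeR adjusted p = 7.66e-80). The groups did not overlap for either gene, and the control medians were 9.22 and 8.02 CPM, above and close to the knockdown. The 3 members higher in the knockdown were the chemokine CCL5 (133 against 215 CPM, -0.69 ± 0.06 SE), the inflammasome product IL18 (5.96 against 19.5 CPM, -1.59 ± 0.17 SE) and the B cell factor TNFSF13B. Interleukin 1 beta was higher than in the control in both groups, at a median of 297 CPM in the control, 845 in the knockdown and 3363 in the knockout (log2 difference 2.01 ± 0.06 SE, edgeR adjusted p = 3.12e-32). Its antagonist IL1RN was near the control in the knockdown, with medians of 334, 351 and 2089 CPM in the same order (log2 difference 2.57 ± 0.05 SE, edgeR adjusted p = 2.52e-75).

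NF-kB genes followed the same direction. NF-kB is the transcription factor family that drives many cytokine genes and its own inhibitors. Of 27 tested subunits, inhibitors and induced brakes 23 were higher in the knockout, 1 higher in the knockdown and 3 not called, with a median log2 difference of 0.97. The survival factor BCL2A1 stood at 274, 298 and 347 CPM against 36.99, 39.7 and 50.3 CPM (log2 difference 2.88 ± 0.06 SE, edgeR adjusted p = 5.01e-68), and the surface protein CD83 at 168, 188 and 204 CPM against 20.2, 27.9 and 32.04 CPM (log2 difference 2.76 ± 0.07 SE, edgeR adjusted p = 1.59e-60). The inhibitor NFKBIA stood at 924, 957 and 1036 CPM against 283, 320.1 and 417 CPM (log2 difference 1.56 ± 0.05 SE, edgeR adjusted p = 1.04e-39). All 3 were separated between the groups. The exception was IRAK3, a brake on Toll-like receptor signalling, at 46.6 against 68.9 CPM (-0.57 ± 0.08 SE, higher in the knockdown).

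A set of chemokines had a shared motif beside their start sites. The letters GGG, any 2 bases and TTTCC, a common form of the NF-kB element, were searched on both strands in the 300 bases from 250 before to 50 after the RefSeq start (GRCh38.p14 table). They were found in 7 of 25 cytokine and chemokine promoters with an entry (28%), in 6 of 24 NF-kB list promoters (25%), in 222 of 9962 promoters of tested genes (2.23%) and in 1.92% of all 27305. For genes called at least 2-fold higher in the knockout the count was 39 of 1150 promoters (3.39%). For those at least 2-fold higher in the knockdown it was 16 of 830 (1.93%). Among the cytokine genes with a match, 6 of 7 were higher in the knockout and 1 was not called (median 4.51), and among the 18 without a match 14 were higher in the knockout, 1 was higher in the knockdown and 3 were not called (median 1.98). A match is a description of letters and not a site of binding. The 250 bases before the start are shown for 3 of these chemokines, 5′ to 3′ on the gene's strand, with the match in capitals.
CXCL2: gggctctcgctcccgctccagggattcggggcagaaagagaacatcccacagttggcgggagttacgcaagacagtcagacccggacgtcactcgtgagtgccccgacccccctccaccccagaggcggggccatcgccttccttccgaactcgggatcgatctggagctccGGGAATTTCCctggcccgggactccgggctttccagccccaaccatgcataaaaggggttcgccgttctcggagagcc
CXCL3: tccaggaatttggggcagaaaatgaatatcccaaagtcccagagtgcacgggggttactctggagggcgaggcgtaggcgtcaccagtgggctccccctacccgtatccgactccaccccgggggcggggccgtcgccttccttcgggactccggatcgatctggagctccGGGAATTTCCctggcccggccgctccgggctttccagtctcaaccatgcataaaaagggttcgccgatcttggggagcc
CCL20: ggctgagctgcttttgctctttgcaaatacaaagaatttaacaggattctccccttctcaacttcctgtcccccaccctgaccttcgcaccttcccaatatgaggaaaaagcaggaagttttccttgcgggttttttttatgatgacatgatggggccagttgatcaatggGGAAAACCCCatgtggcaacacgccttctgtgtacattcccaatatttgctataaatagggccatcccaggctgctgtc
They lie at chr4:74099196-74099445 (minus strand), chr4:74038690-74038939 (minus strand) and chr2:227813592-227813841 (plus strand), and the match begins 78, 79 and 79 bases before the start. CXCL2 and CXCL3, which attract neutrophils, stood at 47.7, 80.1 and 90.9 CPM and at 105, 167 and 191 CPM in the knockout and at 1.504, 3 and 4.85 CPM and at 4.73, 5.59 and 7.44 CPM in the knockdown (log2 differences 4.52 ± 0.16 and 4.73 ± 0.13 SE, edgeR adjusted p = 9.6e-38 and 1.25e-29). Against the shared control they were higher in both groups, by 5.95 and 5.81 in the knockout and by 1.43 and 1.08 in the knockdown. CCL20, which attracts CCR6-bearing cells, stood at 779, 2209.8 and 2566 CPM in the knockout and 54.4, 61.4 and 98.5 CPM in the knockdown (log2 difference 4.85 ± 0.23 SE, edgeR adjusted p = 5.29e-14), with the control median between them at 139.5 CPM. Its knockout libraries spread more than those of the others, with replicate 2 the lowest, yet did not reach the knockdown.

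Interferon response genes were lower than in the control in both groups by the list median, and lowest in the knockdown. Of 56 tested members 42 were higher in the knockout than in the knockdown, 6 were higher in the knockdown and 8 were not called, with a median log2 difference of 0.68. Against the shared control the list median was -0.98 in the knockout and -1.66 in the knockdown. IFI27, a mitochondrial protein induced by interferon, stood at 114, 133 and 169 CPM in the control, 30.3, 35.3 and 44.01 CPM in the knockout and 2.91, 4.16 and 4.98 CPM in the knockdown (log2 difference 3.16 ± 0.16 SE, edgeR adjusted p = 1.2e-29). The 3 groups did not overlap, which gives the order control, knockout, knockdown. GBP1, a guanylate binding protein, went the other way, with 15.4, 20.9 and 26.1 CPM in the knockout, 39.6, 41.7 and 43.1 CPM in the knockdown and 34.1, 41.1 and 46.2 CPM in the control (log2 difference -1.02 ± 0.11 SE, edgeR adjusted p = 4.71e-15). IFITM2, an antiviral membrane protein, was also called higher in the knockdown (150.3 against 193 CPM, log2 difference -0.32 ± 0.07 SE, edgeR adjusted p = 3.09e-05), with overlapping libraries.

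**Figure D3:**
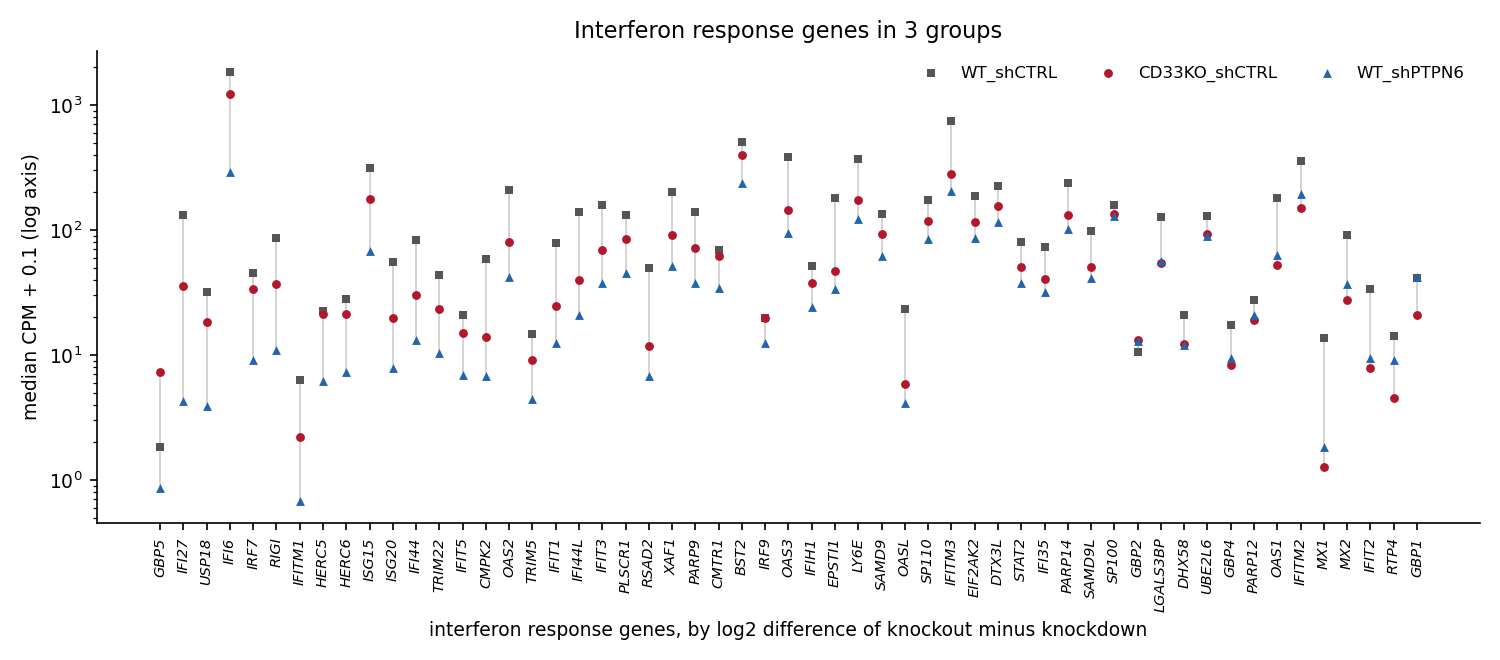
Median level of the tested interferon response genes (1 of the 56 is not shown) in WT_shCTRL (grey squares), CD33KO_shCTRL (red circles) and WT_shPTPN6 (blue triangles), as CPM + 0.1 on a log axis, ordered by the log2 difference of knockout minus knockdown. Grey squares are mostly the highest, and blue triangles lie under red circles for most genes.

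The interferon-stimulated response element, searched as GAAA, any 2 bases and GAAA on both strands of the same windows, was found in 28 of 43 interferon response promoters with an entry (65.1%), 290 of 9962 promoters of tested genes (2.91%) and 3.65% of all. For genes called at least 2-fold higher in the knockout the count was 39 of 1150 promoters (3.39%). For those at least 2-fold higher in the knockdown it was 26 of 830 (3.13%). The rest of this count concerns the interferon response list. Of the 28 with a match 22 were higher in the knockout, 2 higher in the knockdown and 4 not called. Of the 15 without a match these counts were 12, 1 and 2, with medians of 0.69 in both sets. The promoters of the gene with the largest difference that holds a match and of the one that went furthest the other way are shown, with matches in capitals.
IFI27: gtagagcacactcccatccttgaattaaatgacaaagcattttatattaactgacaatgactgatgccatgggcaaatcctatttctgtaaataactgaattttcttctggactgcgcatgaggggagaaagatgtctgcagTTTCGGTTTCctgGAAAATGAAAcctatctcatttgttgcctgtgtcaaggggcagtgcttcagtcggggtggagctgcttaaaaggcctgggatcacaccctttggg
GBP1: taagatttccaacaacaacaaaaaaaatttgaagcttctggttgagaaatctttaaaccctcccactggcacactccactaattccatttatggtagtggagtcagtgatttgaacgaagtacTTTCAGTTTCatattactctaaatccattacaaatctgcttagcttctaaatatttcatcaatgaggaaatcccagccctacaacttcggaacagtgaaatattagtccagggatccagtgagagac
These 250 bases lie at chr14:94110486-94110735 (plus strand) and chr1:89065209-89065458 (minus strand). IFI27 holds 2 matches, which begin 108 and 95 bases before the start, and GBP1 holds 1, which begins 127 bases before it. The motif was thus present in both genes although they differed in opposite directions. IFI6 and ISG15, abundant members of the response, had medians of 1217 and 176 CPM in the knockout and 293 and 67.7 CPM in the knockdown (log2 differences 2.04 ± 0.10 and 1.43 ± 0.11 SE, edgeR adjusted p = 7.75e-14 and 1.36e-10), below control medians of 1833 and 312 CPM.

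Receptors and transducers of interferon were divided. Of 26 tested members 10 were higher in the knockout, 11 higher in the knockdown and 5 not called, and the median was -0.045, or 0.10 without a filter on low counts. IRF7, the factor that amplifies type I interferon, was higher in the knockout (33.8 against 9.02 CPM, 1.89 ± 0.13 SE). IFNGR1, the ligand-binding chain of the interferon gamma receptor, stood at 23.4, 46.6 and 50.8 CPM against 139, 151 and 163 CPM (log2 difference -1.78 ± 0.08 SE, edgeR adjusted p = 8.31e-33), and the interferon alpha receptor chain IFNAR2 was also higher in the knockdown (107 against 194 CPM, -0.89 ± 0.06 SE). MHC class I presentation genes were higher in the knockout for 10 of 19 and lower for 6. HLA-E stood at 364, 401 and 409 CPM against 88.2, 95.3 and 107 CPM (log2 difference 2.03 ± 0.05 SE, edgeR adjusted p = 3.35e-61), whereas the peptide editor TAPBPL and the proteasome activator PSME2 were higher in the knockdown (-1.11 ± 0.17 and -0.40 ± 0.07 SE). MHC class II genes split, with 6 of 14 higher in the knockout and 5 higher in the knockdown. HLA-DQA1 (5.24 against 0.764 CPM) and HLA-DQB1 (8.67 against 4.34 CPM) were higher in the knockout. The invariant chain CD74 (142 against 357 CPM, -1.27 ± 0.06 SE) and the protease CTSS (248 against 613 CPM, -1.34 ± 0.05 SE) were higher in the knockdown. Counts of individual HLA genes can share reads among near-identical copies and are uncertain for that reason.

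Most tested Siglecs and receptors with inhibitory motifs, the class to which CD33 belongs, were higher in the knockdown. Of 37 listed genes, 21 had enough counts, and of these 17 were higher in the knockdown, none was higher in the knockout and 4 were not called, with a median log2 difference of -1.97. CD33 itself is not in the list. The list medians against the shared control were -1.78 in the knockout and 0.89 in the knockdown. LAIR1, a collagen receptor that recruits SHP-1, stood at 40.1, 43.3 and 51.8 CPM in the knockout, 77.1, 79.05 and 89.04 CPM in the control and 173, 196 and 211 CPM in the knockdown (log2 difference -2.12 ± 0.07 SE, edgeR adjusted p = 1.84e-51). SIGLEC16, which is in the list as a Siglec, is an activating paralog without an inhibitory motif that the annotation types as a transcribed pseudogene, and it stood at 1.28, 3.104 and 4.401 CPM, 13.5, 17.4 and 20.5 CPM and 37.6, 42.7 and 47.2 CPM in the same order (log2 difference -3.85 ± 0.18 SE, edgeR adjusted p = 2.42e-39), and SIGLEC11, a close relative with which it can share reads, had medians of 0.469, 7.35 and 14.6 CPM. No 2 of the 3 groups overlapped for LAIR1 or SIGLEC16. SIGLEC7 and SIGLEC9, which belong to the CD33-related Siglecs, were low in both groups, with medians of 0.886 and 1.46 CPM in the knockout and 3.67 and 6.18 CPM in the knockdown (edgeR adjusted p = 2.39e-05 and 6.66e-07). SIRPA, the CD47 receptor, stood at 112 against 214 CPM (log2 difference -0.95 ± 0.06 SE, edgeR adjusted p = 4.62e-31). PECAM1 was not called (367 against 381 CPM, edgeR adjusted p = 0.359), at levels above the control median of 162 CPM, but was called higher in the knockdown without a filter on low counts (log2 difference -0.13, edgeR adjusted p = 0.033).

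Kinases, adaptors and phosphatases downstream of such receptors were divided. Of 54 tested members 18 were higher in the knockout, near the 33.1% of all genes, 30 higher in the knockdown and 6 not called, with a median of -0.25. The adaptor TYROBP, which couples activating receptors to Syk, stood at 329, 337 and 391 CPM against 1108, 1182 and 1289 CPM (log2 difference -1.77 ± 0.05 SE, edgeR adjusted p = 1.25e-58). UBASH3B, a phosphatase that acts on Syk family kinases, stood at 4.84, 6.16 and 9.84 CPM against 62.9, 73.2 and 78.6 CPM (log2 difference -3.36 ± 0.13 SE, edgeR adjusted p = 6.67e-47). Among members higher in the knockout were the Src family kinase FGR at 95.3, 111 and 115 CPM against 12.03, 15.5 and 16.7 CPM (log2 difference 2.85 ± 0.09 SE, edgeR adjusted p = 2.88e-55) and the adaptor LCP2, also known as SLP-76, at 281, 323 and 337 CPM against 79.4, 86.99 and 90.4 CPM (log2 difference 1.89 ± 0.05 SE, edgeR adjusted p = 1.44e-57). These 4 did not overlap between groups. The kinases SYK and LYN differed less than FGR: SYK stood at 57.1 against 71.9 CPM (-0.35 ± 0.07 SE) and LYN at 292 against 359 CPM (-0.30 ± 0.05 SE), both called higher in the knockdown.

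Genes at Alzheimer's disease risk loci (CD33 left out) were higher in the knockout for 12 of 35, near the 33.1% of all genes, and higher in the knockdown for 19, with a median of -0.45. SPI1, which encodes the myeloid master regulator PU.1, stood at 48.4, 58.2 and 60.8 CPM in the knockout and 139, 151 and 168 CPM in the knockdown (log2 difference -1.42 ± 0.07 SE, edgeR adjusted p = 3.48e-36). The knockdown was also above the control (50.3, 65.8 and 71.5 CPM), which overlapped the knockout. The transcription factor MEF2C and the kinase PTK2B were higher in the knockout (706 against 402 CPM and 291 against 157 CPM, 0.86 ± 0.05 and 0.93 ± 0.05 SE). TREM2, the lipid-sensing receptor that signals through TYROBP, was lower than in the control in both groups, with medians of 601 CPM in the control, 394 in the knockdown and 216 in the knockout (log2 difference -0.89 ± 0.05 SE, edgeR adjusted p = 3.98e-32). The membrane-bending protein BIN1 went from a control median of 262 CPM to 18.9 CPM in the knockout and 13.2 CPM in the knockdown, and the direct difference between the last 2 was small, with overlapping libraries (log2 difference 0.46 ± 0.12 SE, edgeR adjusted p = 0.000446).

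The longer lists of monocyte and macrophage markers separated the groups in a mixed way. Classical monocyte markers were higher in the knockdown for 11 of 16 and higher in the knockout for 4, with a median of -1.38. Lysozyme stood at 192, 235 and 256 CPM in the knockdown and 23.4, 25.02 and 31.7 CPM in the control, far above the knockout libraries given above (log2 difference -5.95 ± 0.12 SE, edgeR adjusted p = 5.21e-67). CD93, a receptor of monocytes and endothelium, stood at 0, 0.888 and 2.64 CPM against 67.4, 74.3 and 81.4 CPM (log2 difference -5.99 ± 0.18 SE, edgeR adjusted p = 7.74e-55). CD52, a small surface glycoprotein, went the other way (851 against 225 CPM, 1.93 ± 0.05 SE), as did the protease inhibitor SERPINB1 (104 against 33 CPM, 1.63 ± 0.08 SE). Macrophage maturation markers were higher in each group for 14 of 33. CSF1R, through which its ligand M-CSF sustains macrophages, stood at 114, 123 and 139 CPM against 578, 592 and 625.2 CPM (log2 difference -2.27 ± 0.05 SE, edgeR adjusted p = 9.81e-67), and the haemoglobin scavenger receptor CD163 at 0.798, 2.02 and 4.95 CPM against 83.6, 89.7 and 95.6 CPM (log2 difference -5.30 ± 0.17 SE, edgeR adjusted p = 1.25e-44). The control lay between the groups for both, at medians of 264 and 21.9 CPM. The lipid genes LPL and FABP4 were higher in the knockout, at 444 against 68.4 CPM and 354 against 43.7 CPM (2.7 ± 0.06 and 2.91 ± 0.07 SE). Markers of progenitors and granular myeloid cells included RNASE2, an eosinophil and monocyte ribonuclease, at 9.78 against 117 CPM (-3.52 ± 0.11 SE), and the progenitor factor MYB at 21.6 against 13.7 CPM (log2 difference 0.69 ± 0.14 SE, edgeR adjusted p = 6.46e-06), with overlapping libraries for MYB. In all, 3 of 12 of that list were higher in the knockout and 6 higher in the knockdown.

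Lineage transcription factors showed no common direction, with 17 of 37 higher in the knockout, 16 higher in the knockdown and a median of -0.10. GFI1, a transcriptional repressor that acts in myeloid development, stood at 206, 209.6 and 214 CPM against 9.94, 13.2 and 17.96 CPM (log2 difference 3.96 ± 0.08 SE, edgeR adjusted p = 3.74e-72), and ID3, an inhibitor of helix-loop-helix factors, at 178, 198 and 209.6 CPM against 8.73, 12.4 and 15.2 CPM (log2 difference 4.03 ± 0.09 SE, edgeR adjusted p = 4.69e-70). Both were also lower in the knockdown than in the control, whose medians were 143 and 110.1 CPM. CEBPA, a driver of myeloid differentiation, and ETV6 were higher in the knockdown (-1.23 ± 0.06 and -1.40 ± 0.06 SE).

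Genes of the phagocyte oxidase were mostly higher in the knockdown. The enzyme makes superoxide from NADPH, and 8 of 12 tested members were higher in the knockdown, 1 higher in the knockout and 3 not called. Its catalytic subunit CYBB stood at 17.6, 19.6 and 26.1 CPM in the knockout, 159.6, 176 and 180.5 CPM in the control and 558, 588 and 618 CPM in the knockdown (log2 difference -4.88 ± 0.07 SE, edgeR adjusted p = 7.19e-86), without overlap between any 2 groups. The cytosolic subunit NCF4 stood at 37.6, 40.3 and 43.02 CPM against 161, 166 and 176 CPM (log2 difference -2.05 ± 0.07 SE, edgeR adjusted p = 6.32e-51). The kinase PRKCB, which phosphorylates oxidase subunits, was the member higher in the knockout (492.7 against 246 CPM, 1.04 ± 0.05 SE). Phagocytic and scavenger receptors were higher in the knockdown for 19 of 38 and higher in the knockout for 12, the latter near the 33.1% of all genes. SCARB1, a receptor for high-density lipoprotein, stood at 16.2, 20.4 and 30.3 CPM against 125, 135 and 145 CPM (log2 difference -2.66 ± 0.09 SE, edgeR adjusted p = 9.69e-52), whereas the integrin ITGB3 and the bridging protein MFGE8 were higher in the knockout (24.6 against 3.27 CPM and 93.7 against 39.2 CPM). Toll-like receptor and inflammasome genes were higher in the knockdown for 20 of 34 and higher in the knockout for 4. LY96, the partner of TLR4, stood at 2.93, 5.09 and 7.48 CPM against 31.4, 32.9 and 38.8 CPM (log2 difference -2.72 ± 0.15 SE, edgeR adjusted p = 4.8e-32) and the inflammasome sensor NLRC4 at 2.14, 2.705 and 4.497 CPM against 24.5, 27.6 and 29.8 CPM (log2 difference -3.25 ± 0.20 SE, edgeR adjusted p = 1.29e-28). The kinase RIPK2, which acts below NOD receptors, was higher in the knockout (46.9 against 15.2 CPM, 1.62 ± 0.11 SE).

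Lysosome genes were higher in the knockdown for 26 of 49 and higher in the knockout for 12, with a median of -0.26. The acid lipase LIPA stood at 163, 185 and 206 CPM against 462, 474 and 495 CPM (log2 difference -1.36 ± 0.05 SE, edgeR adjusted p = 4.43e-47), without overlap. The sphingomyelinase SMPD1 and the cathepsin CTSF were higher in the knockout (71.9 against 33.2 CPM and 15.8 against 4.72 CPM). Subunits of the V-ATPase, the pump that acidifies lysosomes, were higher in the knockdown for 9 of 16 and higher in the knockout for 5, with log2 differences between -1.03 and 0.45. ATP6V0D1 had the largest, at 100.3 against 200.1 CPM.

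Early response genes of the EGR, FOS and JUN families and the feedback phosphatases of ERK signalling were higher in the knockout. Of 38 tested 29 were higher in the knockout, 6 higher in the knockdown and 3 not called, with a median log2 difference of 1.42. Against the shared control the medians were 0.59 in the knockout and -0.70 in the knockdown. The phosphatases DUSP2 and DUSP5 stood at 299, 332 and 339 CPM and at 214, 232 and 244 CPM in the knockout and at 19.2, 21.04 and 23.4 CPM and at 23.7, 26.8 and 34.6 CPM in the knockdown (log2 differences 3.93 ± 0.07 and 3.04 ± 0.07 SE, edgeR adjusted p = 1.5e-76 and 1.79e-66). Neither overlapped. EGR1, the early growth response factor, had the control between the groups, with medians of 116 CPM in the knockout, 62.5 in the control and 11.3 in the knockdown (log2 difference 3.32 ± 0.10 SE, edgeR adjusted p = 4.43e-55). MYC and KLF4 were the members higher in the knockdown with the smallest adjusted p, at 6.51 against 23.95 CPM and 3.97 against 12 CPM (-1.92 ± 0.18 and -1.57 ± 0.21 SE).

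Growth factors, matrix proteases and matrix proteins held some of the largest single differences. All 21 tested genes of the growth factor list, which holds PDGF, TGF-beta, EGF and VEGF family members and others, were called, 19 higher in the knockout and 2 higher in the knockdown, with a median of 2.40. INHBA, the activin A subunit, stood at 722, 758 and 838 CPM against 22.4, 25.05 and 27.7 CPM (log2 difference 4.95 ± 0.06 SE, edgeR adjusted p = 3.6e-92), and GDF15, a stress-induced member of the TGF-beta family, at 1129, 1219.7 and 1331 CPM against 75.2, 79.9 and 87.2 CPM (log2 difference 3.93 ± 0.06 SE, edgeR adjusted p = 4.05e-87). Against the control, INHBA was higher in the knockout and lower in the knockdown (log2 3.51 and -1.43), whereas GDF15 differed in the knockout alone by the test (log2 3.97 and 0.04). The 2 higher in the knockdown were GRN, progranulin (491 against 953 CPM, -1.01 ± 0.05 SE), and VEGFB (27.2 against 37.5 CPM, log2 difference -0.51 ± 0.12 SE, edgeR adjusted p = 0.000236), the latter with overlapping libraries. Of 28 matrix proteases, inhibitors and plasminogen activators 14 were higher in each group. MMP7, matrilysin, stood at 567, 581 and 649 CPM against 12.3, 14.5 and 17.8 CPM (log2 difference 5.29 ± 0.07 SE, edgeR adjusted p = 2.92e-91) and MMP1, interstitial collagenase, at 322, 361 and 386 CPM against 4.52, 5.68 and 8.74 CPM (log2 difference 5.91 ± 0.09 SE, edgeR adjusted p = 4.27e-86), with control medians of 39.8 and 121 CPM between the groups. ANXA2 and S100A10, which together bind plasminogen at the cell surface, were higher in the knockdown (144 against 444 CPM and 94.6 against 359 CPM, -1.62 ± 0.05 and -1.91 ± 0.06 SE). Integrins and matrix proteins were higher in the knockout for 25 of 41 and higher in the knockdown for 13. The collagen receptor ITGA1 stood at 169, 185 and 193 CPM against 2.103, 2.74 and 4.22 CPM (log2 difference 5.97 ± 0.11 SE, edgeR adjusted p = 6.02e-76) and the matrix protein TGFBI at 121, 142 and 144 CPM against 1367, 1426 and 1592 CPM (log2 difference -3.40 ± 0.05 SE, edgeR adjusted p = 2.91e-82), in opposite directions and both without overlap. ITGAM, the integrin subunit CD11b, was higher in the knockdown (58.99 against 174 CPM, -1.57 ± 0.07 SE), while the knockout was close to the control median of 62.5 CPM.

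**Figure D4:**
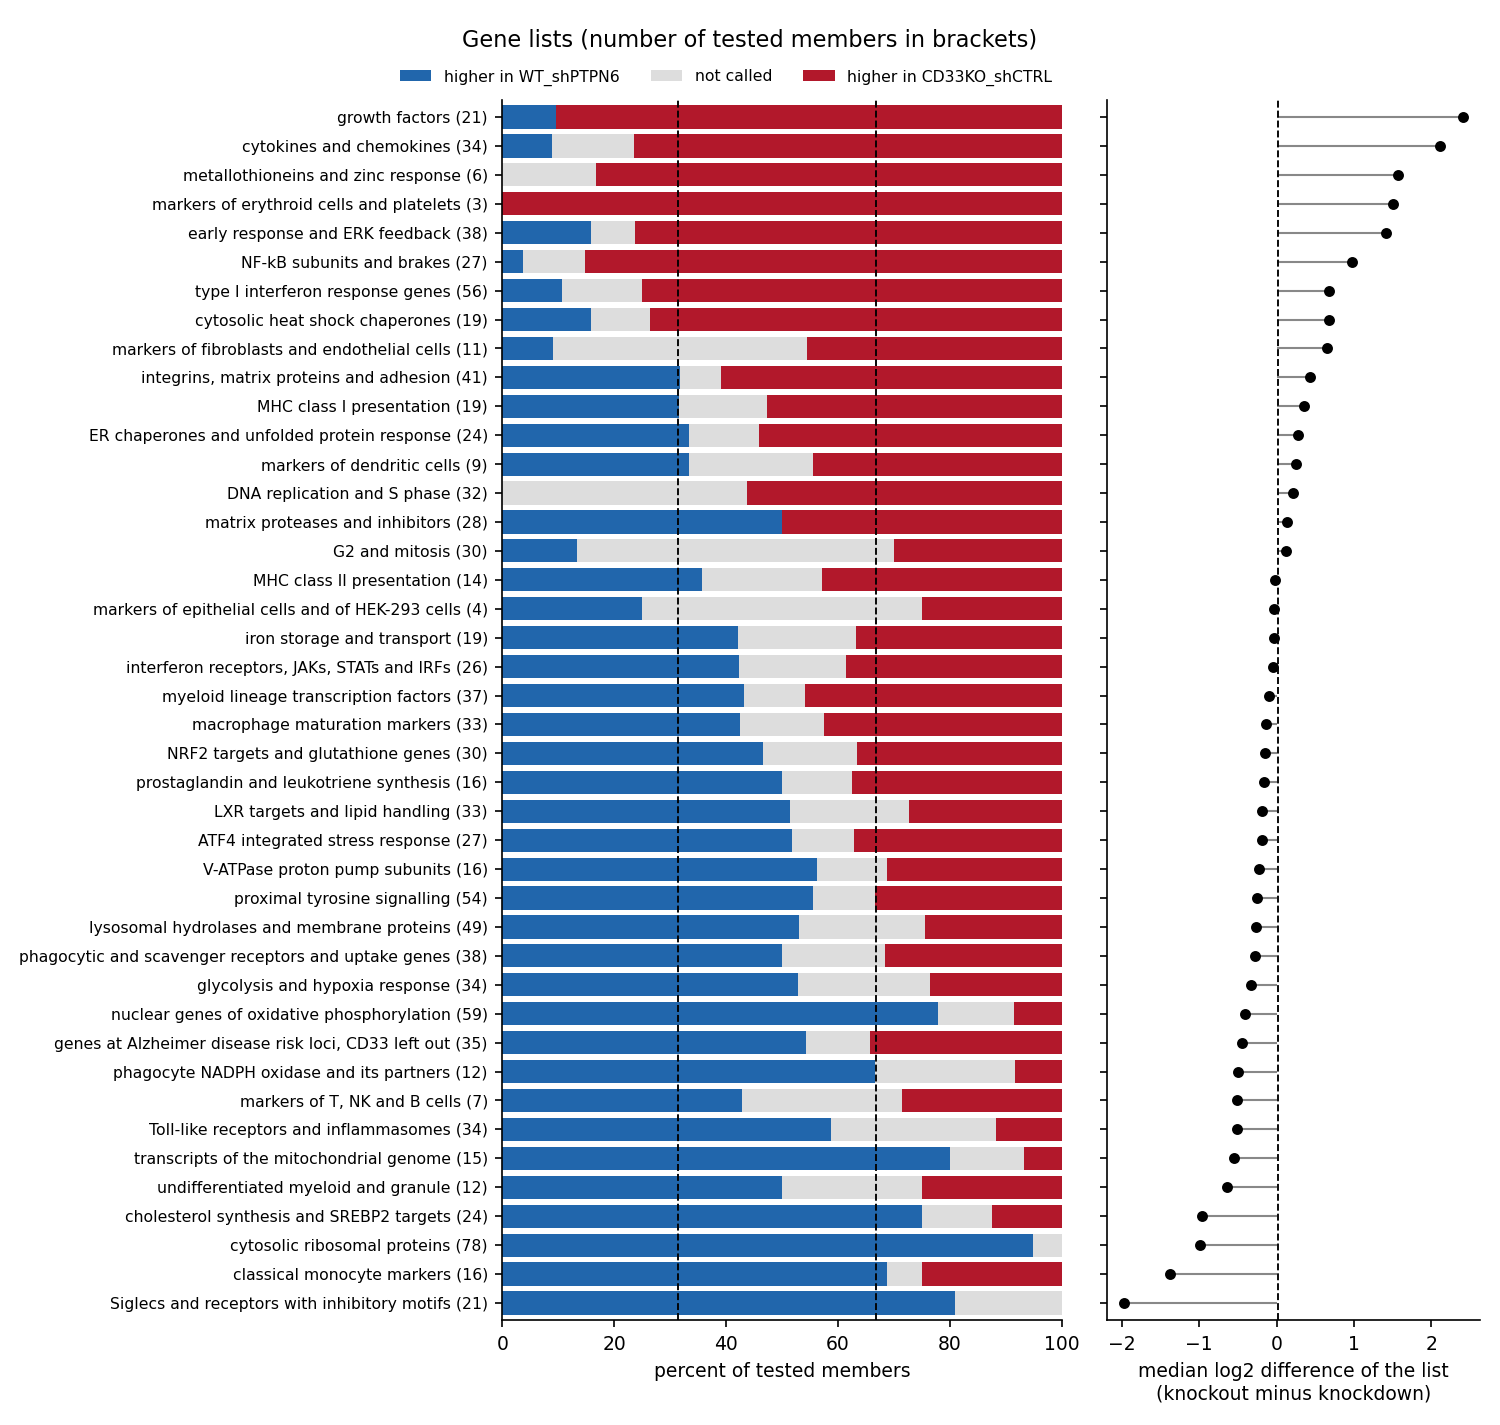
Left, percent of the tested members of each gene list that were higher in WT_shPTPN6 (blue), not called (grey) or higher in CD33KO_shCTRL (red); dashed lines mark the shares over all genes tested (31.4% blue and 33.1% red). Right, median log2 difference of each list, with a dashed line at the median of all genes (0.017); growth factors and cytokines lie highest and Siglecs and receptors with inhibitory motifs lowest.

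Lipid genes differed in both directions. Cholesterol synthesis genes were higher in the knockdown for 18 of 24 and higher in the knockout for 3, with a median of -0.96. MSMO1, a sterol oxidase, stood at 27.5, 36.1 and 41.5 CPM against 192, 211 and 239 CPM (log2 difference -2.58 ± 0.08 SE, edgeR adjusted p = 1.73e-54), without overlap. The epoxidase SQLE and the sterol carrier STARD4 were among the 3 higher in the knockout (287 against 197 CPM and 131 against 47.1 CPM). LXR targets and lipid handling genes were higher in the knockdown for 17 of 33 and higher in the knockout for 9. PLIN2, which coats lipid droplets, stood at 2334, 2378 and 2472 CPM against 230.1, 271 and 283 CPM (log2 difference 3.16 ± 0.05 SE, edgeR adjusted p = 1e-83), while the desaturase SCD was higher in the knockdown (105 against 326 CPM, -1.61 ± 0.06 SE). Genes of prostaglandin and leukotriene synthesis and their receptors were divided. The inducible cyclooxygenase PTGS2 stood at 109, 129.6 and 146 CPM against 3.82, 4.697 and 5.23 CPM (log2 difference 4.78 ± 0.11 SE, edgeR adjusted p = 3.65e-65) and the prostaglandin receptor PTGER4 at 266 against 82.4 CPM, whereas LTA4H and ALOX5AP of the leukotriene branch stood at 49.2, 57.1 and 67.3 CPM against 496, 569 and 590.4 CPM (log2 difference -3.26 ± 0.06 SE, edgeR adjusted p = 2.21e-75) and at 339.7 against 1224 CPM. In that list 6 of 16 were higher in the knockout and 8 higher in the knockdown.

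Redox and iron genes had no common direction. NRF2 targets and glutathione genes were higher in the knockout for 11 of 30, near the 33.1% of all genes, and higher in the knockdown for 14. GCLM, a subunit of the enzyme that starts glutathione synthesis, stood at 261, 275 and 298 CPM against 55.2, 64.7 and 67.8 CPM (log2 difference 2.12 ± 0.06 SE, edgeR adjusted p = 2.04e-59), and GPX1, a glutathione peroxidase, at 249.8, 274 and 300.05 CPM against 944, 961 and 995 CPM (log2 difference -1.82 ± 0.05 SE, edgeR adjusted p = 5.81e-60), in opposite directions. The transferase MGST1 was higher in the knockdown (-2.86 ± 0.08 SE) and SQSTM1, the autophagy receptor p62, in the knockout (1.27 ± 0.04 SE). Of 6 tested metallothionein and zinc genes 5 were higher in the knockout. MT2A stood at 429, 472 and 522 CPM against 32.9, 34.9 and 45.1 CPM (log2 difference 3.70 ± 0.06 SE, edgeR adjusted p = 3.69e-80), and MT1E at 74.2 against 27.2 CPM. The control medians of 322 and 90.6 CPM were above every knockdown library. Among iron genes 7 of 19 were higher in the knockout and 8 higher in the knockdown, beside 33.1% and 31.4% of all genes, with the transporters SLC39A14 and SLC11A2 in opposite directions (1.65 ± 0.07 and -1.21 ± 0.07 SE).

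Ribosomal protein genes differed almost as a block. Of 78 tested 74 were higher in the knockdown, none in the knockout and 4 were not called, with a median log2 difference of -0.99, and -0.42 in the knockout and 0.55 in the knockdown against the shared control. RPLP0, a protein of the ribosomal stalk, stood at 191, 203 and 219 CPM against 627, 663 and 752 CPM (log2 difference -1.72 ± 0.05 SE, edgeR adjusted p = 1.08e-55), and RPS12 at 614 against 1787 CPM. Many of these genes have processed copies that can share reads. Transcripts of the mitochondrial genome were higher in the knockdown for 12 of 15, and nuclear genes of oxidative phosphorylation for 46 of 59 with 5 higher in the knockout. UQCRH, a complex III subunit, stood at 688 against 1461 CPM (-1.07 ± 0.04 SE), while SDHA of complex II was higher in the knockout at 105 against 63.4 CPM (0.70 ± 0.07 SE). With mitochondrial and ribosomal protein genes left out of the scaling, the counts of genes called higher were 4291 in the knockout and 4179 in the knockdown. Glycolysis and hypoxia genes were higher in the knockdown for 18 of 34 and higher in the knockout for 8, with lactate dehydrogenase LDHA at 174 against 406 CPM (-1.22 ± 0.05 SE), phosphofructokinase PFKP at 57.1 against 228 CPM (-2.04 ± 0.06 SE) and the angiogenic factor VEGFA at 309.6 against 60.0041 CPM (2.40 ± 0.06 SE).

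Stress chaperones were higher in the knockout for 14 of 19 and higher in the knockdown for 3, with a median of 0.67. HSPH1 stood at 534, 550.2 and 584 CPM against 259, 268 and 279 CPM (log2 difference 1.04 ± 0.05 SE, edgeR adjusted p = 1.51e-39), while the small heat shock protein HSPB1 was higher in the knockdown (308 against 461 CPM, -0.57 ± 0.05 SE). Chaperones of the endoplasmic reticulum differed little, with 13 of 24 higher in the knockout, 1 of them at least 2-fold, and 8 higher in the knockdown, none at least 2-fold. ATF4 stress genes split between 10 of 27 and 14 of 27, with the serine synthesis enzyme PHGDH at 10.8 against 44.2 CPM and the factor ATF3 at 103 against 18.1 CPM (-2.08 ± 0.13 and 2.52 ± 0.09 SE). DNA replication genes were higher in the knockout for 18 of 32 and in the knockdown for none, all by less than 2-fold, with the helicase subunit MCM3 at 123 against 87.2 CPM (0.55 ± 0.06 SE). Mitotic genes were mostly not called (17 of 30), but CDC20, the activator of the anaphase-promoting complex, stood at 454, 465 and 532 CPM against 104, 119 and 125 CPM (log2 difference 2.00 ± 0.05 SE, edgeR adjusted p = 3.11e-62).

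Markers of other cell types were mostly absent or low, and the exceptions are given with their levels. Of 23 markers of T, NK and B cells 7 had enough counts, among them GNLY, granulysin, at 509, 552 and 587 CPM in the knockout, 6.83, 9.26 and 10.2 CPM in the knockdown and 293, 353 and 395 CPM in the control (log2 difference 5.94 ± 0.08 SE, edgeR adjusted p = 2.92e-91). The CD3 chains and CD79 chains did not have enough counts, and CD4 and TRAC were higher in the knockdown (58.9 against 267 CPM and 105 against 179.6 CPM). CD4 was also among the macrophage and monocyte identity markers examined, so its level is not particular to lymphoid cells. The summed level of the list, with CD4 included, was 662 to 768 CPM per knockout library and 416 to 519 CPM per knockdown library. Of 18 fibroblast and endothelial markers 11 were tested, 5 higher in the knockout and 1 higher in the knockdown, with TIE1, an orphan receptor kinase of vessels, at 42.7, 50.1 and 52.6 CPM against 1.504, 1.68 and 2.73 CPM (log2 difference 4.69 ± 0.17 SE, edgeR adjusted p = 1.76e-48) and CDH5, KDR and LUM below the count filter. Of 16 epithelial and HEK-293 markers 4 were tested, with the cadherin CDH2 higher in the knockout (65.8 against 3.03 CPM) and the neurofilament INA higher in the knockdown (0.353 against 5.18 CPM). Of 16 dendritic cell markers 9 were tested, with the chemokine receptor CCR7 at 47.9, 49.9 and 62.5 CPM against 0, 0.451 and 1.09 CPM (log2 difference 6.71 ± 0.23 SE, edgeR adjusted p = 1.22e-49) and the lipid-presenting CD1C at 0.724 against 10.97 CPM. Summed levels were 199 to 241 and 132 to 176 CPM for fibroblast and endothelial markers, 107 to 147 and 65.6 to 103 CPM for epithelial markers and 449.9 to 495 and 269.8 to 301 CPM for dendritic markers, in the knockout and the knockdown in that order. The 3 tested erythroid and platelet markers were all higher in the knockout, at summed levels of 26.1 to 55.9 and 9.15 to 16.4 CPM. The part of such cells or programmes in the differences between the groups was not tested, and in bulk RNA fewer cells of a type and less RNA per cell cannot be told apart.

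Some genes departed from the control in opposite directions. Of 13098 genes tested, every control library lay below all knockout and above all knockdown libraries in 348, and the order was the reverse in 423. Only genes with a symbol that were called in the direct comparison without overlap were counted. They also had a mean of at least 5 CPM in the higher group. Before the limits on symbol, call and level, 5487 genes (41.9%) did not overlap between knockout and knockdown. By the smaller of the 2 distances from the control, the most separated genes with the knockout on top were MMP3, MMP10, MAP3K4-AS1, TNFRSF11B, PKD1L1 and NTS. Stromelysin 2 (MMP10) stood at 32.96, 41.03 and 58.2 CPM in the knockout, 0.932, 1.93 and 3.12 CPM in the control and 0, 0 and 0.601 CPM in the knockdown, and the neuropeptide neurotensin (NTS) at 32.1, 33.96 and 44.7 CPM, 0.69, 1.43 and 2.03 CPM and 0, 0.239 and 0.546 CPM. MAP3K4-AS1 stood at 132, 164 and 185 CPM, 14.3, 17.4 and 19.4 CPM and 1.51, 2.61 and 3.01 CPM. TNFRSF11B, the decoy receptor osteoprotegerin, and PKD1L1 rested on 2 counts each in the knockdown. With the knockdown on top they were FCN1, SIRPB2, LILRB2, LYZ, IGSF6 and CDA. The immunoglobulin superfamily receptor IGSF6 stood at 34.4, 41.1 and 47.5 CPM in the knockdown, 7.28, 7.96 and 10.4 CPM in the control and 0, 1.54 and 2.25 CPM in the knockout, and cytidine deaminase (CDA) at 6.83, 8.41 and 11.96 CPM, 1.21, 1.599 and 2.25 CPM and 0, 0.347 and 0.917 CPM.

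Other genes departed from the control to levels that were close in both groups. The genes considered had a symbol and a mean of at least 20 CPM in the control or in both the knockout and the knockdown. Of these, 2048 were not called in the direct comparison and had a 95% interval of the log2 difference within 0.5 either way. They were counted whether or not they differed from the control. Furthest above the control were PFKFB4, DGAT2, CXCR4, AHR and FAM20C. FAM20C, a kinase of secreted proteins, stood at 323, 358 and 395 CPM in the knockout, 329, 347 and 367 CPM in the knockdown and 121, 130.1 and 142 CPM in the control, with a direct log2 difference of 0.05 (95% interval -0.04 to 0.15). PFKFB4, a regulator of glycolysis, stood at 41.1, 41.9 and 49.99 CPM, 39.7, 45.4 and 49.1 CPM and 10.2, 11.99 and 13.7 CPM (interval -0.20 to 0.16), and DGAT2, which makes triglycerides, at medians of 52.4, 52.2 and 13.9 CPM (interval -0.14 to 0.20). Furthest below the control were CD22, PENK, KCNQ1, FLT3 and SATB1-AS1. CD22, a Siglec that recruits SHP-1 in B cells, stood at 4.25, 6.26 and 9.44 CPM in the knockout, 4.097, 6.31 and 8.22 CPM in the knockdown and 56.8, 58.2 and 65.5 CPM in the control (interval -0.37 to 0.42). The opioid precursor PENK stood at 4.13, 6.303 and 10.1 CPM, 3.61, 7.37 and 9.56 CPM and 54.3, 66.7 and 73.9 CPM (interval -0.40 to 0.37), and the receptor FLT3 at medians of 14.1, 14.7 and 60.4 CPM (interval -0.46 to 0.10). In each of these 10 genes the knockout and knockdown libraries overlapped, and apart from 1 AHR knockout library within the control range all lay on the same side of the control.

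The libraries with both changes show where the direct difference falls when CD33 knockout and the hairpin are combined. On a scale on which 0 is the mean log2 level of the knockdown and 1 that of the knockout, the median place of CD33KO_shPTPN6 was 0.684 over the 2764 genes with a called difference of at least 2-fold (quartiles 0.413 and 0.939), and 68.4% of these genes were nearer to the knockout. For the 437 genes with at least 8-fold the median was 0.779 and 82.6% were nearer to the knockout. CD33KO_shPTPN6 and CD33KO_shCTRL are the same line, so line and genotype cannot be told apart here. HSPG2, CDH13 and NRG4 stayed at the knockout level, with medians of 10747, 1109 and 1743 CPM in CD33KO_shPTPN6, and FCN1, CD93 and CD163 at 0, 0.515 and 2.24 CPM. Others were nearer to the knockdown: CSF1R at 396, 455 and 459 CPM, SPI1 at 122, 134 and 146 CPM and CDC20 at 97.8, 108 and 114 CPM. CYBB, at 148, 166 and 186 CPM, lay between the groups and near the control. CD22 and PENK, which were not called between the groups, were lower still at 0.818, 1.48 and 2.24 CPM and 1.64, 2.29 and 3.61 CPM, and FAM20C was higher still at 624, 630.2 and 669 CPM. For CD22 and FAM20C no library with both changes overlapped either group. For PENK the highest library with both changes and the lowest knockdown library both stood at 3.61 CPM.

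**Figure D5:**
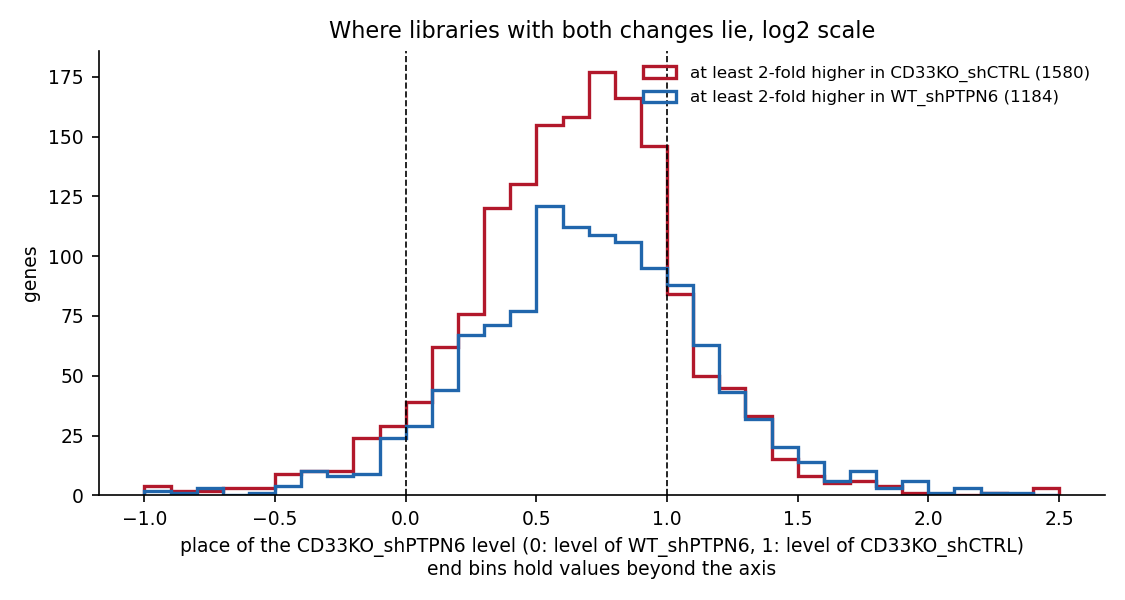
Number of genes by the place of the CD33KO_shPTPN6 level on a log2 scale that runs from the WT_shPTPN6 level (0) to the CD33KO_shCTRL level (1), for the 1580 genes called at least 2-fold higher in the knockout (red) and the 1184 called at least 2-fold higher in the knockdown (blue). Both distributions lie mostly between 0 and 1 and peak above 0.5.

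NFKBIA, IL1B, IL1RN, CXCL2, CXCL3, CCL20, IFI6, ISG15, SIGLEC7, SIGLEC9, SIGLEC11, SIRPA, PECAM1, SYK, LYN, TREM2, BIN1, EGR1 and TNFSF13B were chosen for mention after their values were seen. Except where overlap is stated, the libraries of the knockout and the knockdown did not overlap for any gene called above with a level or a log2 difference. Counting by strand is not stated, so counts of genes that overlap another annotated gene are uncertain. This holds for NRG4, SIRPB2, IGSF6, ITGA1, CD163, MT-CO3, IFNAR2, TAPBPL, SIGLEC7, SQSTM1, LIPA, MAP3K4-AS1, AHR and KCNQ1. For SIRPB2, ITGA1, CD163 and MT-CO3 the other gene is on the same strand.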

How the data were processed

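RNA of 23 libraries was measured with QuantSeq 3' mRNA-Seq from 100 ng of total RNA, per the labels' protocols, which reads near the 3' ends of transcripts. The authors deposited 1 table of raw read counts per gene. Per the submitters' processing notes, the build was hg38 and the tools were STAR 2.7.3a, featureCounts (with Subread 2.0.0), bcl2fastq, DESeq2 1.26.0 and R 3.6.1. The strand setting and gene annotation version are not given in the sources used here. The table has 60617 gene identifiers, of which 60261 (99.4%) were matched to a symbol in GENCODE 29. CPM, levels and tests were computed from these counts.

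Counts were filtered with filterByExpr by group, scaled with TMM and fitted with 1 mean per group over all 4 groups in edgeR 4.0.16 (R 4.3.3, limma 3.58.1, robust glmQLFit). Each difference was tested with glmQLFTest and adjusted with Benjamini-Hochberg over all 13098 genes, without a replicate block. CPM were TMM-scaled, with a prior count of 2 for log2 values, and 95% intervals of a difference are approximate. Ratios and floors (3 counts) cover counting error only, and a library total of 2048161 to 6269304 counts limits the precision of low genes. In simulated counts for this comparison over 13098 genes the same test called 18, 34, 42 and 50 of 50 genes changed by 1.25, 1.5, 2 and 4-fold, and 11 unchanged genes. Only these genes were changed there, none of them of very low level, whereas 64.6% of genes were called in the data. The adjusted p cutoff was therefore stricter in the simulation, and its detection rates do not carry over to this comparison.

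Named genes were CD33, PTPN6, the 8 largest log2 and 6 largest CPM differences in each direction among called genes of at least 5 CPM without overlap, 6 genes per direction with the control between the groups, 5 above and 5 below the control at shared levels, and, for each list and direction, the 2 called members (or fewer) whose adjusted p was lowest. The libraries, genes and lists were chosen with earlier results of these data known. No 2 libraries of the knockout, and no 2 of the knockdown, had the same counts within sampling noise. The other groups were not checked for this. Alternatives were DESeq2 1.42.0, its size factors, other filters, a fit to 12 libraries, thinning, other scaling, the block and each library left out. The results of some genes are not reported here.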

Additional observations from a re-analysis of the deposited data

Results flagged for a closer look

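Single libraries far from the other 5 of their group were looked for in the 69 genes described with their library ranges, by the gap to the nearest library over the range of the group (Dixon's 95% critical value, 0.625 for 6 libraries). Of 207 groups checked 25 held such a library, where chance gives about 1 in 20 for values that follow a normal distribution. Some flags rest on few counts, where that rate does not apply. FCN1 in the knockout had 2 counts over the group, and MMP3 in the knockdown had 6. The library most often set apart was control replicate 4 (5 genes), followed by knockout replicate 2 (4 genes).

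Control replicate 4 had the highest levels of its group for HSPG2 (46.6 CPM), CDH13 (3.87 CPM) and NRG4 (5.89 CPM), 3 genes that were abundant in the knockout, and the lowest for NFKBIA (363.6 CPM) and the leukotriene enzyme LTA4H (111.7 CPM). Knockout replicate 2 was the lowest of its group for CXCL2 (47.7 CPM), CCL20 (778.8 CPM) and IFNGR1 (23.4 CPM) and the highest for CDC20 (532.2 CPM). Knockout replicate 1 was the highest for FCN1 (0.978 CPM) and MMP10 (58.2 CPM), replicate 3 for CYBB (26.1 CPM) and NLRC4 (4.50 CPM), and replicate 6 for CCR7 (62.5 CPM).

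Among knockdown libraries replicate 5 was the lowest for PLIN2 (230.1 CPM) and the highest for RPLP0 (752.1 CPM). Replicate 6 was the highest for MMP3 (0.996 CPM) and BCL2A1 (50.3 CPM), replicate 1 the highest for NFKBIA (416.9 CPM), and replicate 4 the lowest for FCN1 (41.5 CPM) and CDC20 (103.8 CPM). In the control, replicate 6 was the highest for IL23A (9.55 CPM) and TYROBP (1117.5 CPM), replicate 5 for CXCL2 (2.07 CPM) and replicate 2 for CD93 (35.3 CPM).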

How the results depend on the processing

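The counts of called genes stayed within 1.5 times of 4341 and 4118 under every alternative run. Without a filter on low counts, which brings in genes with few counts, those with at least 2-fold differences rose to 2474 higher in the knockout and 1882 higher in the knockdown. With each library left out in turn the counts were 4073 to 4297 and 4027 to 4203, and 1524 to 1603 and 1172 to 1238 for at least 2-fold. With the replicate block they were 4312 and 4070. Deviations of same-numbered libraries from their group means had correlations of -0.028 to 0.011 over all genes tested. These values showed no pairing by number. A pairing that touched only some of the genes was not tested. Of the named genes, MT-RNR2 lost its call without the filter (log2 0.07, edgeR adjusted p = 0.174) and PECAM1 gained one (-0.13, edgeR adjusted p = 0.033). List medians that changed sign without the filter were those of eicosanoid genes (0.31), interferon receptors and transducers (0.10), MHC class II (0.095) and lymphoid markers (0.48). Without the filter 15 further list medians kept their sign but moved by at least the SD of the list median among libraries. For 24 lists the change stayed within that SD. Over all lists and libraries left out, 10 such moves without a change of sign were found. With libraries left out the MHC class II median ran from -0.17 to 0.25 and the dendritic median from -0.015 to 0.25. The cause was not tested. Detection by expression level was not tested.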
